A study of Gallus gallus with 12 samples.

Results

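The change with age in white plumage was followed in feather follicles of chickens from the F3 generation of a cross between Huiyang Bearded and White Leghorn birds. The comparison set 3 white libraries taken at 11 weeks of age (1W1, 1W3 and 1W4) against 3 white libraries taken at 7 weeks (7W1, 7W2 and 7W3), which are 6 of the 12 libraries of the series. The other 6 libraries come from yellow follicles of the same cross at the same ages. Newly emerged feathers were taken from the nape and the base of the follicle was used, so each library mixed growing epithelium with pulp. All birds had the genotype s/W at Silver, a sex-linked locus at which W marks a hen, and CC at recessive white. All, yellow birds included, also carried the Dominant white allele. Among white birds 7W2 was Ii and the others II, and among yellow birds 1 at each age was II and the others Ii. No day of extraction or sequencing was given in the sources used here, so such a batch and the age cannot be told apart. The study's text counts each library as a different bird in its results but describes plucking the same birds at several ages in its methods. The p-values measure only the spread between these libraries.

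Members were the genes with a mean of at least 1 FPKM (fragments mapped to a gene, scaled to its length and to all mapped fragments) over the 6 white libraries, which left 11091 of 24353 genes. The change is the difference of log2(FPKM + 0.1), 11 weeks minus 7 weeks. A gene is called higher or lower where limma's Benjamini-Hochberg adjusted p is at most 0.05 and the change is at least 1 on the log2 scale. The pseudocount of 0.1 understates the change of genes near 0, and a gene that passed the filter only through the age at which it was high had to differ. Named genes with a mean below 1 FPKM at the lower age were of this kind, and their p-values are description only. Those higher include RBL1, NEURL1B, TRIM25, ITGA8, SPRED2, GPAM, SLC7A11, EPAS1, FOSL2, THBS2, LECT2, FBN2, FZD4, CBX6, HOXC10, NR3C1, RAB38 and ENSGALG00000041483. Those lower include SS2 and HIST1H103.

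The feather follicle is a renewing organ. Stem cells in its wall feed a collar of dividing epithelium, which is sorted into barbs by BMP, Hedgehog, Wnt and Notch signals and then fills with feather keratins as it moves outward, while a vascular dermal pulp nourishes it. Melanocytes at the base pass melanosomes to the barb cells. Dominant white is an allele of PMEL, which encodes the fibrils on which black eumelanin is laid down. MC1R drives eumelanin synthesis in melanocytes, and the agouti signalling protein, encoded by ASIP, blocks that receptor.

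Many genes differed between the ages in white follicles, with 3345 of 11091 called (30.2%). Of these, 2751 were higher at 11 weeks (24.8% of the genes tested) and 594 were lower (5.36%). Genes for the ribosome and for the nuclear-encoded respiratory chain had the lowest medians of the lists that could be read with confidence, and the genes called lower also included PMEL, MLANA, the antioxidant enzyme gene GPX1, 3 haemoglobin genes and IGFBP5, a binding protein of insulin-like growth factors. ASIP, receptors and feedback genes of Wnt, Notch and FGF signalling, the desmosome gene PKP1, several matrix genes and the clock gene CRY2 were among those that rose. The calls of the receptor genes NOTCH1, FGFR2, LGR4 and FZD4 were lost under at least 1 alternative given below. So were those of PMEL, MLANA, GPX1 and the haemoglobin gene HBM. With gene length adjusted for, the list medians were 0.19 for Wnt, 0.09 for Notch and 0.02 for the list with FGF. The median of all genes was then -0.14. As deposited the median gene stood 0.41 higher at 11 weeks on the log2 scale. Each list median as deposited is set against this level. Counts of genes called as deposited in each group are likewise set against the 24.8% higher and 5.36% lower of all genes.

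**Figure D1:**
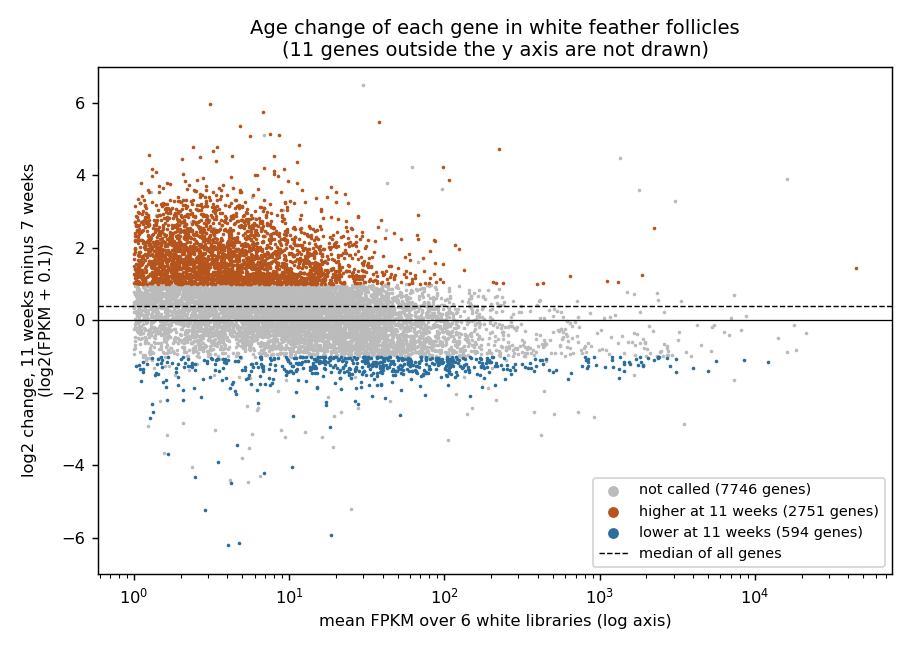
Each point is a gene, with its mean FPKM over the 6 white libraries on a log x axis and its log2 change, 11 weeks minus 7 weeks, on the y axis. Orange points are the 2751 genes called higher, blue points the 594 called lower, and the dashed line is the median change of 0.41, with most orange points at low and most blue points at high mean FPKM.

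The split between higher and lower calls depended on the scale. With libraries scaled by the median of ratios, which sets the median gene near 0, 1768 genes were called higher (15.9%) and 1497 lower (13.5%), so that the share of calls that were higher went down to 54.2% from 82.2%. All 594 genes called lower as deposited were also called lower after that scaling, and 1768 of the 2751 higher genes were still called higher. That scaling lowered the changes by a median of 0.41. Lower calls could therefore hardly be lost, and their retention adds no support. Level and length also moved with the result. In the top quartile of genes by mean log2 level the median change was -0.20, with 140 genes higher and 355 lower, whereas in the bottom quartile it was 0.98, with 1319 higher and 70 lower.

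The change rose with the length of the gene locus, counted in the deposited coordinates (GRCg6a) with introns included. In the decile of shortest loci, from 157 to 2477 bp, the median change was -0.64, with 99 genes higher and 300 lower. In the decile of longest loci, from 63359 bp upward, it was 0.99, with 549 higher and 9 lower. The medians in yellow follicles were -0.46 and 0.87 for the same deciles. Over the genes Spearman's rho between change and locus length was 0.53 in white and 0.51 in yellow follicles, given as a description because all genes share the same libraries. After this trend was removed from each library, an alternative added after the data were seen, 1280 genes were called higher (11.5%) and 886 lower (7.99%), including 1233 of the genes called higher as deposited and 308 of those called lower. Whether RNA integrity, library preparation or the tissue itself moved with locus length was not tested, and the value after this adjustment is given beside the list medians. List counts after median-of-ratios scaling are set against 15.9% higher and 13.5% lower of all genes. Those after this adjustment are set against 11.5% higher and 7.99% lower. List medians after this adjustment are set against -0.14, the median of all genes after it.

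**Figure D2:**
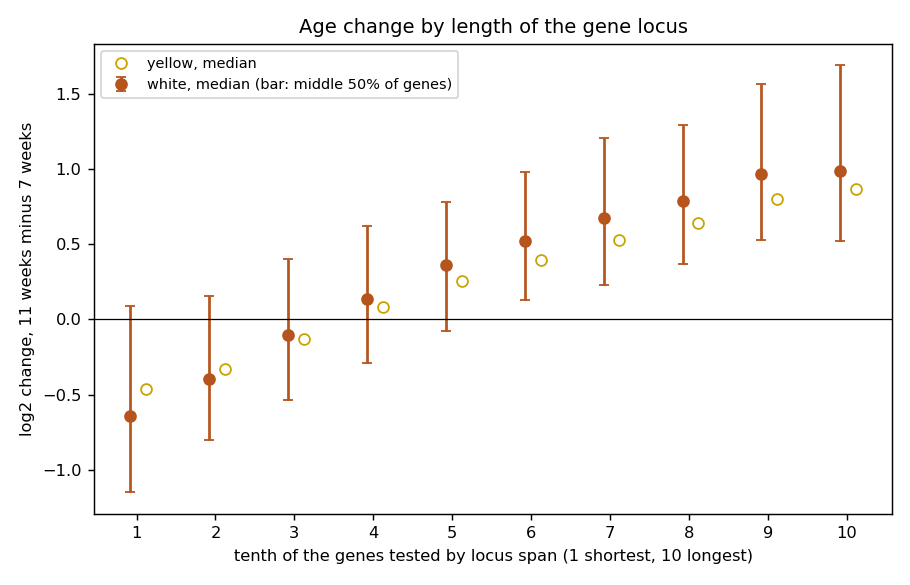
The x axis divides the 11091 genes into deciles by locus length, from the shortest to the longest, and the y axis gives the log2 change, 11 weeks minus 7 weeks. Filled points are the white medians with bars over the middle 50% of genes, open points are the yellow medians, and both climb from below 0 in the decile of shortest loci (-0.64 in white) to above 0 in the last (0.99 in white).

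The number of genes at or above given FPKM levels also differed between the ages. FPKM are scaled within each library, so the total amount of RNA was not measured. The number of genes at 1 FPKM or more was 11408 ± 55.0 at 11 weeks and 10008 ± 79.4 at 7 weeks (SD, n = 3 each), and genes at 500 FPKM or more numbered 158.3 ± 1.53 at 11 weeks and 189.7 ± 2.08 at 7 weeks. The ages did not overlap in either number, and the two-sided exact permutation test gave p = 0.1 for both, the smallest value that 3 libraries against 3 allow. Sequencing depth is not known from FPKM. Spearman's rho was 0.966 to 0.978 between white libraries of the same age and 0.846 to 0.897 between libraries of different ages.

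Ribosomal protein genes, which build both subunits of the cytosolic ribosome, were lower together. All 66 measured members lay below 0, from -1.62 to -0.34, with 25 called lower and none higher. Their median was -0.92 against 0.41 for all genes, -1.34 after median-of-ratios scaling, -0.39 after quantile normalization, which gives every library the same distribution of values, and -0.76 after the locus-length adjustment, where 11 were called. Together they took 9.53% to 10.8% of all FPKM at 11 weeks, against 17.1% to 17.5% at 7 weeks.

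RPS26, a protein of the small subunit, had 1642, 1695 and 1705 FPKM at 11 weeks and 4897, 4034 and 4530 FPKM at 7 weeks, a log2 change of -1.41 (SE 0.09, adjusted p = 7.42e-05). RPL26L1, of the large subunit, had 710, 837 and 745 FPKM at 11 weeks against 1997, 1798 and 1965 FPKM at 7 weeks (log2 change -1.33, adjusted p = 7.69e-05). RPLP1, a protein of the stalk that recruits elongation factors, was the most abundant member, with 3245, 3580 and 3779 FPKM at 11 weeks against 7603, 7420 and 7883 FPKM at 7 weeks (log2 change -1.11). In each of these genes every 11-week library lay below every 7-week library. The same held for 591 of the 594 genes called lower, so it adds no support beyond the call. The share without overlap over all genes is not given here. RPL27 and RPS27A fell by 1.23 and 1.09. The adjustment for locus length left RPS26 and RPL26L1 called and took RPLP1 (-0.72), RPL27 (-0.95) and RPS27A (-0.72) below the fold threshold. After quantile normalization none of these 5 genes reached it, with RPS26 at -0.85 and RPL26L1 at -0.75.

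As deposited, other parts of the translation machinery had a median below that of all genes, but less so than the ribosomal proteins. Among 50 aminoacyl-tRNA synthetases and translation factors, 2 were higher and 1 was lower, with a median of -0.04 against 0.41 for all genes. Quantile normalization gave a median of 0.22, against -0.02 for all genes. After median-of-ratios scaling and after the locus-length adjustment none was higher and 7 were lower, with medians of -0.46 and -0.53. Over all genes 13.5% were lower after that scaling and 7.99% after that adjustment. The lower one was EIF3G, a subunit of initiation factor 3 (log2 change -1.03, adjusted p = 6.4e-05). EEF1A1, the elongation factor that delivers aminoacyl-tRNA, had 3997, 4117 and 4147 FPKM at 11 weeks and 4117, 4650 and 4570 FPKM at 7 weeks, a change of -0.12 that did not pass the test (adjusted p = 0.223). By contrast RRS1, which is needed to assemble the large ribosomal subunit, fell by 2.15, with 11.8, 19.5 and 15.2 FPKM at 11 weeks against 67.5, 62.7 and 72.7 FPKM at 7 weeks. IMP3, a component of the complex that processes the precursor of the small subunit RNA, had 13.1, 31.7 and 22.1 FPKM at 11 weeks against 58.5, 73.7 and 114 FPKM at 7 weeks (log2 change -1.91, adjusted p = 0.00332). In yellow follicles RRS1 and IMP3 changed by -0.97 and -0.24 and were not called.

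The nuclear genes of the mitochondrial respiratory complexes fell to a similar extent. Of 61 members 22 were called lower and none higher, with a median of -0.91, or -1.33 after median-of-ratios scaling and -0.78 after the locus-length adjustment. NDUFB7, a subunit of complex I, had 79.8, 89.7 and 86.3 FPKM at 11 weeks against 222, 233 and 259 FPKM at 7 weeks (log2 change -1.48, SE 0.08, adjusted p = 6.4e-05). UQCR10 of complex III, COX6A1 of complex IV and ATP5MC2 of the ATP synthase changed by -1.37, -1.25 and -1.31. ATP5MC2 and NDUFB7 stayed called after the locus-length adjustment, and UQCR10 (-0.97) and COX6A1 (-0.86) did not.

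The genes carried by the mitochondrial genome did not share this fall as a group. Of 13 members 3 were called higher, a share near the 24.8% of all genes, and none lower. Their median was 0.70 against 0.41 for all genes. It was 0.29 after median-of-ratios scaling, where 2 were higher and 1 lower, and 1.10 after the locus-length adjustment, where 7 were higher. Mitochondrially encoded genes took 15.6% to 18.2% of all FPKM at 11 weeks and 7.34% to 10.003% at 7 weeks. A large part of this share was ATP8, with 73472 of 706304 FPKM in 1W1 and 26849 of 765998 FPKM in 7W1. The rise of the share is therefore as uncertain as the FPKM of ATP8 described below. ND4L, a subunit of complex I, had 4032, 3797 and 3642 FPKM at 11 weeks against 590, 574 and 816 FPKM at 7 weeks (log2 change 2.55, SE 0.14, adjusted p = 6.5e-05). ATP8, of the ATP synthase, had 73472, 63371 and 60795 FPKM at 11 weeks against 26849, 20698 and 25081 FPKM at 7 weeks (log2 change 1.45), although its annotated length of 166 bp makes its FPKM uncertain, and after quantile normalization it was not called (0.70, adjusted p = 0.0757). COX1, of complex IV, changed by 0.70 and COX3, of the same complex, by 0.12, and neither was called.

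Protein turnover and chromatin genes lay on the low side as well. Among 28 proteasome subunits 1 was called lower, PSMB6 (log2 change -1.31), none was higher and the median was -0.48, or -0.68 after the locus-length adjustment. PSMB4, with 252, 242 and 258 FPKM at 11 weeks and 441, 418 and 441 FPKM at 7 weeks, changed by -0.79 (adjusted p = 8.71e-05) and so met the p threshold but not the fold threshold, which it passed after median-of-ratios scaling (-1.21). All 12 histone genes measured lay below 0 (median -0.53, and -0.55 after the locus-length adjustment), with 2 called. H2AFV, a variant of histone H2A, had 262, 245 and 274 FPKM at 11 weeks against 573, 600 and 644 FPKM at 7 weeks (log2 change -1.22, adjusted p = 6.77e-05), and the linker histone gene HIST1H103 changed by -1.79. H3F3B, a replacement histone H3 gene and one of the more abundant, changed by -0.25. Of 49 splicing factors 3 were higher and 3 lower, and the 3 lower genes all encode core proteins of the spliceosomal ribonucleoproteins, among them SNRPD1 (log2 change -1.21) and SNRPG (-1.22, and -0.99 after the locus-length adjustment). The median of the splicing list was 0.25 as deposited, -0.16 after median-of-ratios scaling and -0.33 after the locus-length adjustment.

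Genes of the cell cycle did not move as a group. Of 77 members 10 were higher and 3 lower, and the median of 0.41 equalled that of all genes. After median-of-ratios scaling 5 were higher and 8 lower, against 15.9% and 13.5% of all genes. After the locus-length adjustment the median was -0.20, against -0.14 for all genes. UBE2C, which loads ubiquitin onto mitotic cyclins, had 68.3, 61.8 and 69.6 FPKM at 11 weeks against 166, 151 and 154 FPKM at 7 weeks (log2 change -1.24, adjusted p = 6.5e-05), and its change after the locus-length adjustment was -0.85. RBL1, a relative of the retinoblastoma protein that restrains entry into S phase, changed by 2.96 with 3.34, 2.77 and 3.19 FPKM at 11 weeks against 0.16, 0.53 and 0.319 FPKM at 7 weeks.

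**Figure D3:**
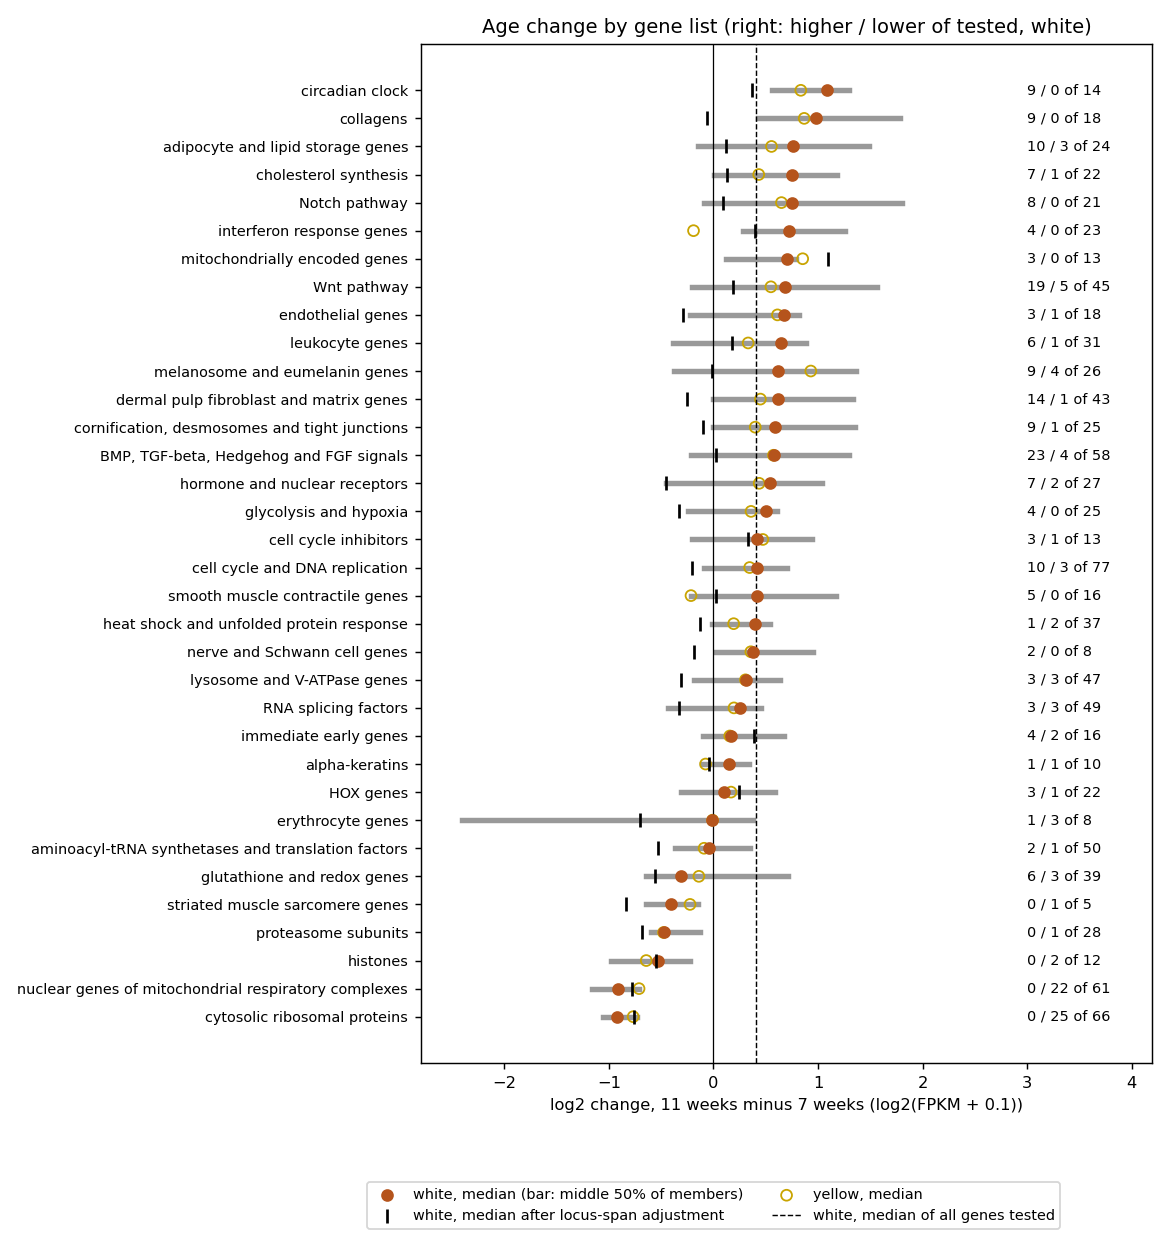
Rows are 34 gene lists, all but the feather keratins, ordered by the white median, and the x axis is the log2 change, 11 weeks minus 7 weeks. Filled points are white medians with bars over the middle 50% of members, ticks are white medians after the locus-length adjustment, open points are yellow medians, the dashed line is the median of all genes (0.41), and the numbers give members called higher and lower. Ribosomal and respiratory genes lie at the bottom (-0.92 and -0.91) and circadian clock genes at the top (1.09). The median of all genes after the locus-length adjustment (-0.14) is not drawn.

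Glutathione and redox genes moved in both directions. Of 39 glutathione and redox genes 6 were higher and 3 lower, with a median of -0.31. The split turned to 4 higher and 13 lower after median-of-ratios scaling (median -0.73) and to 3 higher and 7 lower after the locus-length adjustment (median -0.56). Over all genes 15.9% were higher and 13.5% lower after that scaling, and 11.5% and 7.99% after that adjustment. GPX1, which uses glutathione to reduce hydrogen peroxide, had 358, 356 and 339 FPKM at 11 weeks against 946, 948 and 971 FPKM at 7 weeks (log2 change -1.44, SE 0.06, adjusted p = 6.4e-05). GPX4, which reduces lipid peroxides, fell by 1.22, and its change was -0.83 after the locus-length adjustment. In contrast SLC7A11, the transporter that imports cystine for glutathione synthesis, had 4.29, 4.3 and 3.49 FPKM at 11 weeks against 0.111, 0.421 and 0.108 FPKM at 7 weeks (log2 change 3.86, SE 0.39, adjusted p = 0.000211). GGT5, an enzyme that breaks down extracellular glutathione, rose by 2.51. TXN, the abundant thioredoxin gene, changed by -0.62 and was called lower only after median-of-ratios scaling (-1.04). MANF, a secreted protein of the endoplasmic reticulum, had 88.2, 84.8 and 91.7 FPKM at 11 weeks against 272, 234 and 245 FPKM at 7 weeks (SE of the log2 change 0.07, adjusted p = 6.4e-05), and was lower by 1.34 on the log2 scale after the locus-length adjustment.

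The pigment genes moved in both directions. Of 26 melanosome and melanin genes measured 9 were higher and 4 lower, with a median of 0.62 that became 0.24 after median-of-ratios scaling, -0.24 after quantile normalization and -0.02 after the locus-length adjustment. ASIP (chr20:1567218-1596889, GRCg6a) stood out, with 30.7, 83.2 and 107 FPKM at 11 weeks against 2.51, 1.97 and 0.491 FPKM at 7 weeks. Every 11-week library lay more than 10 times above every 7-week library, and the log2 change of ASIP was 5.47 (SE 0.68, adjusted p = 0.000477). SLC7A11, which also supplies cysteine for pheomelanin, is described above. RAB38, a small GTPase that carries enzymes to the melanosome, had 6.37, 6.06 and 4.84 FPKM at 11 weeks against 0.891, 0.334 and 0.769 FPKM at 7 weeks (log2 change 3.01, adjusted p = 0.00027).

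The 4 lower genes of the list included PMEL, MLANA and HPGDS. PMEL (chr33:7092008-7095774) had 295, 321 and 152 FPKM at 11 weeks against 1066, 558 and 425 FPKM at 7 weeks (log2 change -1.38, SE 0.41, adjusted p = 0.0215). MLANA, a melanosome membrane protein needed for PMEL processing, had 127, 146 and 80.6 FPKM at 11 weeks against 383, 229 and 169 FPKM at 7 weeks (log2 change -1.10, SE 0.34, adjusted p = 0.0244). HPGDS, a prostaglandin D synthase, had 36.3, 50.9 and 20.4 FPKM at 11 weeks against 128, 96.5 and 52.7 FPKM at 7 weeks (log2 change -1.37, adjusted p = 0.0251). The ages did not overlap in these genes, as in 591 of the 594 genes called lower, which adds no support beyond the calls. Library 7W1 was the highest and 1W4 the lowest in all of them.

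These 3 calls rested on few libraries. Without 1W4 the changes were -1.04 for PMEL (adjusted p = 0.0596), -0.85 for MLANA (adjusted p = 0.0738) and -1.01 for HPGDS (adjusted p = 0.0676). MLANA was also lost without 7W1 (-0.78) or 7W2 (-1.15), and HPGDS without 1W1 (-1.43), 7W1 (-1.09) or 7W2 (-1.29). With the library number as a replicate block the changes of MLANA and HPGDS were -0.90 and -0.93 (adjusted p = 0.0669 and 0.111), and PMEL stayed called. After quantile normalization PMEL and MLANA were not called (-0.89 and -0.73).

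The enzymes of melanin synthesis did not differ detectably. TYR, the tyrosinase that starts melanin synthesis, had 35, 34.8 and 17.1 FPKM at 11 weeks and 65.3, 29.5 and 25.7 FPKM at 7 weeks (log2 change -0.41, adjusted p = 0.411). TYRP1, a later enzyme of eumelanin synthesis, had 112, 103 and 58.3 FPKM at 11 weeks and 150, 67.7 and 70.7 FPKM at 7 weeks (log2 change -0.03, adjusted p = 0.949). The receptor gene MC1R had 2.75, 3.95 and 2.26 FPKM at 11 weeks and 7.69, 0.871 and 3 FPKM at 7 weeks (log2 change 0.07), and MFSD12, a lysosomal and melanosomal cysteine transporter, changed by -0.23. After the locus-length adjustment TYR alone of these 4 was called, with a change of -1.49 (adjusted p = 0.0286). DCT and POMC, the precursor of the hormones that activate MC1R, were below the filter, with at most 3.04 FPKM in any white library.

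The summed FPKM of the melanocyte markers in the table was 309.5 to 607.1 at 11 weeks and 690.5 to 1667 at 7 weeks, with 2 of 5 markers called lower, none at 0 and MITF not analysed here. The 2 lower markers, PMEL and MLANA, made up most of this sum, whereas TYR and TYRP1 overlapped between the ages. In bulk tissue fewer melanocytes and less RNA per melanocyte cannot be told apart, which holds for every cell type named here.

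**Figure D4:**
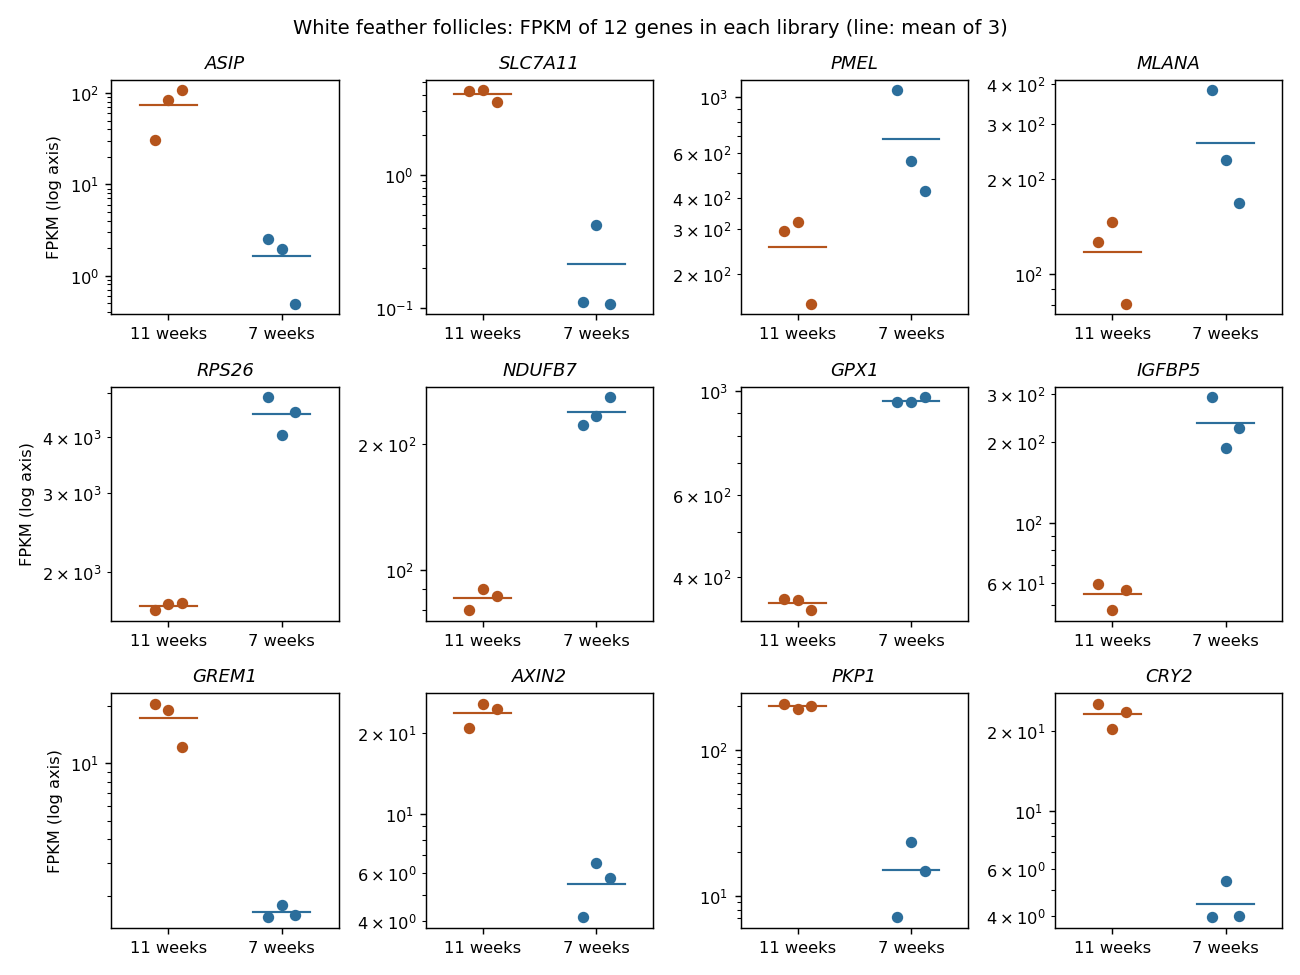
The 12 panels give the FPKM of a gene on a log axis for the 3 white libraries at 11 weeks (orange, left) and the 3 at 7 weeks (blue, right), with a line at each mean. ASIP, SLC7A11, GREM1, AXIN2, PKP1 and CRY2 sit higher at 11 weeks and PMEL, MLANA, RPS26, NDUFB7, GPX1 and IGFBP5 lower. The ages do not overlap in any panel, as in 2747 of the 2751 genes called higher and 591 of the 594 called lower. This adds no support beyond the calls.

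Signalling genes showed a wide spread around a raised median. Of 45 genes of the Wnt pathway, which maintains stem cells and sets barb branching, 19 were higher and 5 lower, with a median of 0.69. The median was 0.27 after median-of-ratios scaling and 0.19 after the locus-length adjustment. After that adjustment 10 were higher and 9 lower, against 11.5% and 7.99% of all genes. AXIN2, a feedback inhibitor that Wnt signals induce, had 20.9, 25.8 and 24.6 FPKM at 11 weeks against 4.11, 6.56 and 5.77 FPKM at 7 weeks (log2 change 2.12, SE 0.18, adjusted p = 0.000127). The receptor gene FZD4 rose by 1.84, and RSPO1, a secreted ligand that amplifies the signal, had 26.4, 24.9 and 28 FPKM at 11 weeks against 10.3, 8.35 and 7.83 FPKM at 7 weeks (log2 change 1.58). LGR4, a receptor of R-spondins, and TCF7, a nuclear effector, rose by 1.86 and 1.29, and their changes were 0.76 and 0.19 after the locus-length adjustment. TCF7 was also not called after median-of-ratios scaling (0.87).

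The 5 lower genes of the pathway, named here after their values were seen, were secreted inhibitors or ligands. Ligands and a secreted inhibitor were also among the higher genes, where WNT16, WNT7B and NOTUM, likewise named after their values were seen, rose by 3.10, 2.41 and 1.54. DKK1, an inhibitor that blocks Wnt co-receptors, had 1.43, 2.53 and 1.24 FPKM at 11 weeks against 5.34, 6.44 and 10.3 FPKM at 7 weeks (log2 change -2.03, SE 0.33, adjusted p = 0.00152). The ligand genes WNT2B, WNT6, WNT3A and WNT4 changed by -1.12, -1.06, -1.01 and -1.01. These 4 lay close to the fold threshold and lost the call without 1 library, namely WNT2B without 1W4 (-0.96) or 7W1 (-0.85), WNT6 without 7W1 (-0.96), WNT4 without 1W1 (-0.97) or 7W1 (-0.88), and WNT3A without 1W1 (-0.92), 7W1 (-0.98) or 7W3 (-0.95). SOSTDC1, an inhibitor of both Wnt and BMP signals and the most abundant gene of the list, had 294, 247 and 227 FPKM at 11 weeks and 247, 206 and 184 FPKM at 7 weeks and was not called (log2 change 0.27, adjusted p = 0.122).

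Of 21 Notch pathway genes 8 were higher and none lower (median 0.75, 0.34 after median-of-ratios scaling, 0.09 after the locus-length adjustment). After median-of-ratios scaling 6 were higher and 2 lower, against 15.9% and 13.5% of all genes. The ligand genes JAG1 and JAG2 rose together, JAG1 with 10.5, 9.58 and 10.4 FPKM at 11 weeks against 1.55, 2.26 and 1.58 FPKM at 7 weeks (log2 change 2.46, adjusted p = 7.34e-05) and JAG2 by 2.32. NRARP, a target gene that feeds back on Notch, rose by 1.97, and NEURL1B, a ubiquitin ligase acting on Notch ligands, by 3.79. The receptor gene NOTCH1 rose by 1.34 as deposited, against 0.93 after median-of-ratios scaling and 0.36 after the locus-length adjustment. HES4, a transcriptional repressor and the most abundant gene of the list, changed by -0.42 and was not called. The target genes HES1, HES6 and HEYL, named after their values were seen, changed by -0.93, -0.93 and -0.53 and met the p threshold but not the fold threshold.

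Among 58 genes of BMP, TGF-beta, Hedgehog and FGF signalling 23 were higher and 4 lower, with a median of 0.58. After median-of-ratios scaling 13 were higher and 6 lower (median 0.17). After the locus-length adjustment 9 were higher and 6 lower (median 0.02). GREM1, a secreted antagonist of BMPs, had 20.5, 19 and 12.2 FPKM at 11 weeks against 1.56, 1.81 and 1.61 FPKM at 7 weeks (log2 change 3.27, SE 0.20, adjusted p = 6.95e-05). SPRED2, an inhibitor of the pathway below FGF receptors, rose by 2.70. FGFR2, an FGF receptor gene, rose by 1.87, and its change was 0.74 after the locus-length adjustment. The 4 lower genes, named after their values were seen, included ID1 and ID4, transcription regulators that BMPs induce. ID1 had 60, 67.4 and 90.5 FPKM at 11 weeks against 166, 165 and 148 FPKM at 7 weeks (log2 change -1.16), and ID4 fell by 1.30, while after the locus-length adjustment the changes were -0.77 and -0.92. The ligand genes TGFB1 and FGF22 changed by -1.29 and -1.54. FSTL1, a BMP-binding protein of mesenchyme, was the most abundant member and changed by 0.42 as deposited and -0.63 after the locus-length adjustment.

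Matrix genes of the pulp were raised as deposited, but the size of this rise depended on locus length. Of 18 collagen genes 9 were higher and none lower, with a median of 0.98, and of 43 fibroblast and matrix genes 14 were higher and 1 lower, with a median of 0.62. Collagen genes span a median of 53506 bp, against 11963 bp for all genes. After the locus-length adjustment the medians were -0.06 for collagens and -0.25 for the matrix genes, against -0.14 for all genes. COL26A1 had 19.3, 23 and 21.6 FPKM at 11 weeks against 0.462, 1.59 and 1.04 FPKM at 7 weeks (log2 change 4.38, SE 0.38, adjusted p = 0.000129). COL6A1, of the microfibrillar collagen VI, had 115, 102 and 120 FPKM at 11 weeks against 23.1, 28.4 and 20.3 FPKM at 7 weeks (log2 change 2.24), and COL8A2 rose by 2.33. These 3 genes stayed called after the adjustment, whereas COL5A2 changed by 1.89 as deposited and 0.76 after it.

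The most abundant gene of each list did not rise. COL1A1, the main fibrillar collagen of dermis, had 785, 946 and 1059 FPKM at 11 weeks and 1288, 1034 and 1046 FPKM at 7 weeks (log2 change -0.28, adjusted p = 0.117), and was called lower after the locus-length adjustment (-1.005). COL1A2 and COL3A1, the next most abundant collagen genes, named after their values were seen, rose by 1.03 and 1.06. SPARC, a collagen-binding protein, had 1089, 1298 and 1206 FPKM at 11 weeks and 1086, 1129 and 1139 FPKM at 7 weeks (log2 change 0.10, and -0.32 after median-of-ratios scaling). OGN, a small proteoglycan, rose by 2.24, the secreted THBS2 by 2.93, the microfibril gene FBN2 by 2.43 and the protease inhibitor gene TIMP3 by 2.06. The 6 fibroblast markers summed to 1778 to 2249 FPKM at 11 weeks and 1577 to 1891 FPKM at 7 weeks, with 3 called higher and none at 0.

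Among epithelial genes the largest rises were in cell contacts. Of 25 genes of cornification, desmosomes and tight junctions 9 were higher and 1 lower (median 0.59, 0.17 after median-of-ratios scaling, -0.10 after the locus-length adjustment). That scaling gave 5 higher and 3 lower, and that adjustment 3 higher and 2 lower. PKP1 (chr26:827966-854048), a plaque protein of desmosomes, had 208, 193 and 200 FPKM at 11 weeks against 7.12, 23.4 and 14.9 FPKM at 7 weeks (log2 change 3.87, SE 0.39, adjusted p = 0.000215). TJP1, a scaffold of tight junctions, had 13.2, 13.2 and 13.6 FPKM at 11 weeks against 1.52, 2.82 and 2.53 FPKM at 7 weeks (log2 change 2.53). VCL, which anchors actin at adhesions and is not in this list, rose by 3.53, and the cells behind its rise were not tested. The only lower gene, S100A11, a calcium-binding protein of cornifying cells, had 561, 502 and 576 FPKM at 11 weeks against 1156, 1200 and 1072 FPKM at 7 weeks (log2 change -1.07), and its change was -0.69 after the locus-length adjustment. CSTA, a protease inhibitor of the cornified envelope and the most abundant gene of the list, changed by -0.84 and was called lower only after median-of-ratios scaling (-1.25).

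Among 10 alpha-keratin genes 1 was higher and 1 lower, with a median of 0.15 that was -0.25 after median-of-ratios scaling and -0.04 after the locus-length adjustment. KRT5, the keratin of basal epithelial cells, had 949, 907 and 937 FPKM at 11 weeks and 767, 766 and 879 FPKM at 7 weeks (log2 change 0.21). KRT14, its usual partner in mammals, had 96.5, 115 and 118 FPKM at 11 weeks against 226, 249 and 207 FPKM at 7 weeks (log2 change -1.05, adjusted p = 0.000208), a call that was lost without 1W1 (-0.96) or 7W2 (-0.98) and after the locus-length adjustment (-0.89). KRT80 rose by 1.71. The feather keratins themselves could not be read with confidence. Among 13 such genes listed, 6 passed the filter and 1 was called lower, which was listed at 0 in all 11-week libraries. F-KER had 4.98, 35.6 and 6.89 FPKM at 11 weeks and 39.1, 4.62 and 45.3 FPKM at 7 weeks, so that libraries of 1 age differed more than the ages. It has near-identical neighbours, and how their reads were assigned was not tested. ENSGALG00000041483, without a symbol and in the same stretch of chromosome 25, was listed at 25114, 14964 and 19273 FPKM at 11 weeks and at 0 in all 7-week libraries. EDQM3, also on chromosome 25 and among the most abundant genes, had 14624, 12966 and 12394 FPKM at 11 weeks and 22264, 25763 and 22377 FPKM at 7 weeks, and its change of -0.82 reached the fold threshold only after median-of-ratios scaling (-1.23).

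As deposited the circadian clock list had the highest median, at 1.09, with 9 of 14 genes higher and none lower. The median was 0.69 after median-of-ratios scaling, where 3 genes were higher. It was 0.37 after the locus-length adjustment, which left 2 genes called, a share near the 11.5% of all genes. Mitochondrially encoded genes had a higher median after that adjustment (1.10). The same held after quantile normalization, at 0.97 against 0.55 for the clock list. CRY2, a repressor of the clock, had 25.4, 20.4 and 23.8 FPKM at 11 weeks against 3.95, 5.4 and 3.99 FPKM at 7 weeks (log2 change 2.36, SE 0.15, adjusted p = 7.16e-05). BHLHE41, another repressor, had 12.3, 16.5 and 14.9 FPKM at 11 weeks against 7.36, 6.55 and 5.87 FPKM at 7 weeks (log2 change 1.13, and 0.72 after median-of-ratios scaling). PER2, which works with the cryptochromes, rose by 1.56, and its change was 0.68 after the locus-length adjustment. The hour at which feathers were taken was not given in the sources used here, so an hour that differed between the ages cannot be told apart from age.

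Lipid genes are set against the 24.8% higher and 5.36% lower of all genes. Of 24 adipocyte and lipid storage genes 10 were higher and 3 lower (median 0.76, 0.35 after median-of-ratios scaling, 0.12 after the locus-length adjustment). That scaling gave 5 higher and 3 lower, and that adjustment 3 higher and 1 lower. GPAM, which starts glycerolipid synthesis, had 4.24, 3.98 and 3.79 FPKM at 11 weeks against 0.386, 0.616 and 0.415 FPKM at 7 weeks (log2 change 2.86, adjusted p = 7.78e-05), and ACACA, which makes malonyl-CoA for fatty acids, rose by 2.23. PNPLA3, a lipase of lipid droplets, rose by 1.73 and changed by 0.67 after the locus-length adjustment. FABP5, the fatty acid binding protein of epidermis and the most abundant member, had 649, 654 and 584 FPKM at 11 weeks and 594, 731 and 677 FPKM at 7 weeks (log2 change -0.08). Of 22 cholesterol synthesis genes 7 were higher and 1 lower, with a median of 0.75. After median-of-ratios scaling 3 were higher and 2 lower (median 0.34). After the locus-length adjustment 3 were higher and none lower (median 0.13). HMGCS1, an early enzyme of the pathway, had 31.5, 27.3 and 23.1 FPKM at 11 weeks against 4.56, 5.49 and 4.07 FPKM at 7 weeks (log2 change 2.51, adjusted p = 6.8e-05), and TM7SF2, a sterol reductase, rose by 1.97. FDPS, which lies between them, changed by -0.57 and was not called. The 4 adipocyte markers summed to 27.8 to 39.1 FPKM at 11 weeks and 28.5 to 30.6 FPKM at 7 weeks, with FABP4 below the filter.

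Of 27 growth factor and hormone genes 7 were higher and 2 lower, shares near those of all genes (24.8% and 5.36%), with a median of 0.54. After median-of-ratios scaling 6 were higher and 6 lower (median 0.14), against 15.9% and 13.5% of all genes. After the locus-length adjustment 3 were higher and 8 lower (median -0.46), against 11.5% and 7.99%. IGFBP5 had 59.9, 47.7 and 56.7 FPKM at 11 weeks against 293, 190 and 225 FPKM at 7 weeks (log2 change -2.09, SE 0.17, adjusted p = 0.00011), and its change was -2.81 after that adjustment. The other lower gene, named after its values were seen, was IGF1R, the receptor of insulin-like growth factor 1, with 2.05, 2.02 and 2.29 FPKM at 11 weeks against 5.66, 4.16 and 4.18 FPKM at 7 weeks (log2 change -1.09, and -0.95 without 7W1). GHR, the growth hormone receptor gene, had 9.22, 9.85 and 9.37 FPKM at 11 weeks against 0.812, 1.37 and 1.3 FPKM at 7 weeks (log2 change 2.96, adjusted p = 7.71e-05). NR3C1, the glucocorticoid receptor gene, rose by 2.62.

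Genes of glycolysis and hypoxia gave 4 higher and no lower calls among 25 members, with a median of 0.50, or -0.33 after the locus-length adjustment. EPAS1, an oxygen-regulated transcription factor, rose by 3.27, with 9.34, 9.06 and 10.1 FPKM at 11 weeks against 0.553, 1.25 and 1.01 FPKM at 7 weeks. PDK1, a kinase that inhibits pyruvate dehydrogenase, rose by 1.86, and the vessel growth factor gene VEGFA by 1.72, or 0.89 after the locus-length adjustment. The abundant glycolytic genes GAPDH and ALDOC changed by -0.58 and -0.83, which met the p threshold (adjusted p = 0.000382 for GAPDH) but not the fold threshold, and both were called lower after median-of-ratios scaling. Among lysosomal genes 3 of 47 were higher and 3 lower (median 0.31, -0.10 after median-of-ratios scaling and -0.31 after the locus-length adjustment), the higher ones including PSAP (log2 change 2.24) and LAMP2 (1.48, and 0.76 after the locus-length adjustment) and the lower ones CD63 (-1.28, and -0.99 after it).

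Immediate early and HOX genes had shares of higher calls near or below the 24.8% of all genes. Of 16 immediate early genes, which respond first to growth signals, 4 were higher and 2 lower. Their median of 0.16 was -0.25 after median-of-ratios scaling and 0.39 after the locus-length adjustment. FOSL2, a partner of JUN proteins, had 10.9, 11.2 and 12.7 FPKM at 11 weeks against 0.402, 1.4 and 0.4 FPKM at 7 weeks (log2 change 4.02, adjusted p = 0.000254), and KLF6 rose by 1.74, while JUND fell by 1.35 as deposited and by 0.95 after the locus-length adjustment. Of 22 HOX genes, which hold position along the body axis, 3 were higher and 1 lower (median 0.10, -0.32 after median-of-ratios scaling and 0.24 after the locus-length adjustment). HOXB3, of the anterior end of its cluster, had 13.2, 18.8 and 23.9 FPKM at 11 weeks against 5.58, 6.46 and 6.15 FPKM at 7 weeks (log2 change 1.57). HOXC10 was at 0.461, 3.96 and 4.07 FPKM at 11 weeks and at most 0.115 FPKM at 7 weeks, and HOXA9, the lower gene, named after its values were seen, changed by -1.70. HOXA4, at 24.4, 22 and 24.5 FPKM at 11 weeks and 37.8, 31.8 and 35.1 FPKM at 7 weeks, was not called. Whether the exact plucking site on the nape differed between ages was not tested.

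Of 8 erythrocyte genes 1 was higher and 3 were lower, all 3 of them globins, with a median of -0.01 that was -0.42 after median-of-ratios scaling and -0.71 after the locus-length adjustment. HBA1, an alpha globin gene, had 23.2, 10.1 and 12.3 FPKM at 11 weeks against 70.8, 89 and 106 FPKM at 7 weeks (log2 change -2.61, SE 0.32, adjusted p = 0.000427). HBBA, a beta globin gene, had 8.55, 3.09 and 4.69 FPKM at 11 weeks against 14, 24.5 and 48.7 FPKM at 7 weeks (log2 change -2.33), and HBM changed by -2.95. With the library number as a replicate block HBM was not called (-2.31, adjusted p = 0.0567). The erythrocyte markers in the table summed to 31.7 to 56.4 FPKM at 11 weeks and 102 to 172 FPKM at 7 weeks, none at 0. ALAS2, which starts haem synthesis in red cells, had 24.7, 18.5 and 25.5 FPKM at 11 weeks and 17.3, 20 and 17.2 FPKM at 7 weeks and was not called (log2 change 0.32). TFRC, the iron uptake receptor of many dividing cells, rose by 2.60.

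Leukocyte and interferon response genes had shares of higher calls below the 24.8% of all genes. Of 31 leukocyte genes 6 were higher and 1 lower. Their median of 0.65 was 0.27 after median-of-ratios scaling, -0.14 after quantile normalization and 0.18 after the locus-length adjustment. Of 23 interferon response genes 4 were higher and none lower, with a median of 0.72, or 0.31 after median-of-ratios scaling and 0.40 after the locus-length adjustment. C3, the central complement component, had 8.32, 8.05 and 7.08 FPKM at 11 weeks against 1.56, 1.86 and 1.58 FPKM at 7 weeks (log2 change 2.16). TRIM25, an antiviral ubiquitin ligase, rose by 2.96. LECT2, a secreted protein that attracts leukocytes, was at 37.8, 1.22 and 5.7 FPKM at 11 weeks and at 0, 0.208 and 0.114 FPKM at 7 weeks. The leukocyte markers in the table summed to 16.8 to 28.005 FPKM at 11 weeks and 8.80 to 11.9 FPKM at 7 weeks, with 2 higher, and the endothelial markers to 16.2 to 19.4 FPKM at 11 weeks and 9.17 to 9.74 FPKM at 7 weeks, with 1 higher. The part of these cells in the changes above was not tested.

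Of 16 smooth muscle genes 5 were higher and none lower, with a median of 0.41, near 0 after median-of-ratios scaling and 0.02 after the locus-length adjustment. CALD1, which regulates actin and myosin, had 50, 44 and 40 FPKM at 11 weeks against 7.58, 10.9 and 8.19 FPKM at 7 weeks (log2 change 2.33), and ITGA8, an integrin, rose by 2.72. The smooth muscle markers summed to 50.04 to 165 FPKM at 11 weeks and 77.0 to 133 FPKM at 7 weeks, which overlap. TNNI1, a troponin of slow skeletal muscle, was the only 1 of 5 sarcomere genes measured that was called, with 3.15, 4.4 and 1.67 FPKM at 11 weeks against 11.1, 8.73 and 9.83 FPKM at 7 weeks (log2 change -1.75).

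Beyond the lists, the genes with the largest changes under the naming rule had varied roles. CBX6, a subunit of a Polycomb repressor complex, had 19.6, 16.4 and 16.9 FPKM at 11 weeks against 0.462, 1.02 and 1.4 FPKM at 7 weeks (log2 change 4.17, adjusted p = 0.000119). The synaptic vesicle gene SYNGR1 rose by 3.48. SRD5A1, which reduces testosterone to dihydrotestosterone, had 37.5, 33.8 and 29.9 FPKM at 11 weeks against 0.714, 4.73 and 4.43 FPKM at 7 weeks (log2 change 3.69, adjusted p = 0.00249). On the other side CYTL1, a small secreted protein, had 2.05, 3.6 and 2.37 FPKM at 11 weeks against 29.2, 9.38 and 17.2 FPKM at 7 weeks (log2 change -2.65, adjusted p = 0.00134). NPB, which encodes the precursor of neuropeptide B, fell by 2.05, and the homeobox gene LBX2 by 1.87.

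Yellow follicles gave the same contrast in 6 other libraries. Of the 11091 genes 2428 were called in yellow (21.9%), 2134 higher (19.2%) and 294 lower (2.65%). Of the 3345 genes called in white, 2181 were called in the same direction in yellow, which is 65.2% of the white calls and 89.8% of the yellow calls, and 1 was called in the opposite direction. The change had the same sign in both colours for 98.8% of white calls and for 90.5% of all genes tested. Genes called higher in white had a median change of 1.64 in white and 1.35 in yellow, and genes called lower had -1.24 in white and -0.94 in yellow. The relation with locus length is common to both colours, and its part in this overlap was not tested.

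**Figure D5:**
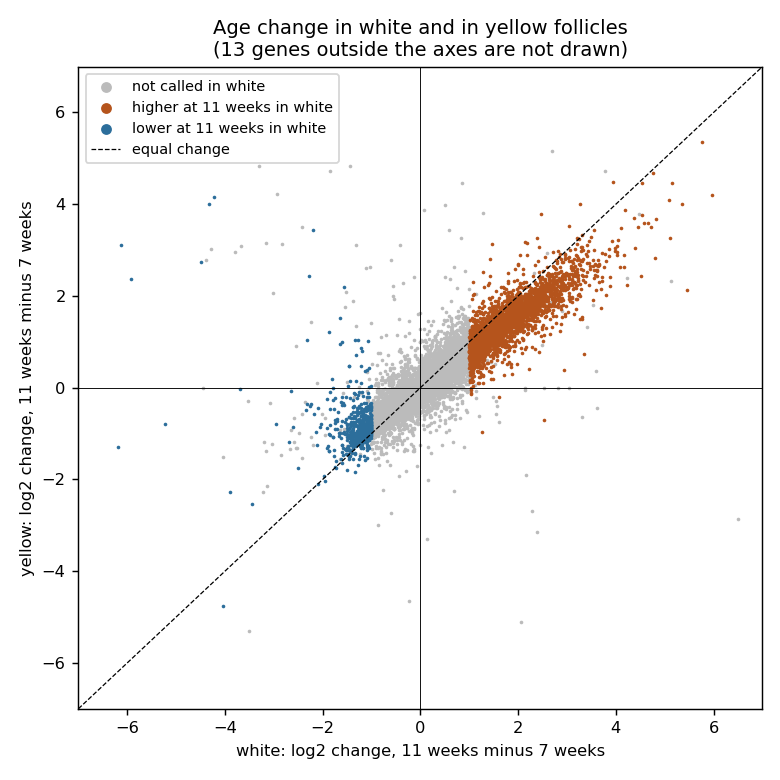
Each point is a gene, with the log2 change, 11 weeks minus 7 weeks, in white follicles on the x axis and in yellow follicles on the y axis. Colours give the white calls and the dashed line is equal change, and 98.8% of the genes called in white have the same sign in both colours.

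The difference between the colours in age change was fitted on all 12 libraries. limma called no gene (0% of 11091) and gave a lowest adjusted p of 0.651. Before adjustment 833 genes (7.51%) had p below 0.05. At this number of libraries no age change can be called particular to white follicles. Estimates of named genes with a small unadjusted p are given as values, with ASIP beside them. IRAK1BP1, a regulator of inflammatory signalling, changed by -1.37 in white and -0.12 in yellow (unadjusted p of the difference 0.000366). SS2 changed by -1.64 in white and 0.96 in yellow, and FJX1, a secreted kinase-like protein, by -1.46 in white and 0.46 in yellow. NEURL1B changed by 3.79 in white and 2.01 in yellow, and RRS1 by -2.15 in white and -0.97 in yellow. NPB changed by -2.05 in white and -0.85 in yellow, and IMP3 by -1.91 in white and -0.24 in yellow. ASIP changed by 5.47 in white and 2.13 in yellow, where it had 28.5, 4.83 and 16.3 FPKM at 11 weeks and 3.1, 1.23 and 6.43 FPKM at 7 weeks and was not called (adjusted p = 0.0574). The difference of 3.34 had an unadjusted p of 0.0138 and an adjusted p of 0.651.

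The ribosomal, respiratory and circadian clock lists had similar medians in both colours. Ribosomal protein genes had a median of -0.92 in white and -0.77 in yellow, respiratory genes -0.91 in white and -0.71 in yellow, and circadian clock genes 1.09 in white and 0.84 in yellow. PMEL and MLANA were also lower at 11 weeks in yellow, by 1.03 and 1.02 on the log2 scale, and IGFBP5 changed by -2.09 in both colours. Other genes called lower in white fell less in yellow and were not called there. In yellow HBA1 changed by -0.85, HBBA by -0.49, HBM by -0.80, HPGDS by -0.40 and DKK1 by -0.79. None of these differences between colours was called. Medians of opposite sign in the colours were seen for interferon response genes, at 0.72 in white and -0.19 in yellow, for smooth muscle genes, at 0.41 in white and -0.22 in yellow, for alpha-keratins, at 0.15 in white and -0.08 in yellow, and for the feather keratins, at -3.98 in white and 3.06 in yellow with the limits given above, and these differences between list medians carry no test.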

How the data were processed

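Total RNA libraries of feather follicles were sequenced as paired reads. The authors deposited FPKM for 24353 genes in 12 libraries, made with TopHat2, Bowtie2 version 2.2.3 and HTSeq version 0.6.0 on GRCg6a with Ensembl release 96. FPKM were based on gene length and the HTSeq counts. They carry no counts, and the read counts of each library in the study's supplement were not used here. Precision therefore rests on the number of libraries.

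After a pseudocount of 0.1 was added, log2 FPKM entered linear models in limma (version 3.58.1, run under R version 4.3.3, eBayes with trend, Benjamini-Hochberg adjustment), for genes with a mean of at least 1 FPKM over the white libraries. Differences between colours were fitted on all 12 libraries. Counts of genes at or above an FPKM level were compared between the ages with an exact permutation test. The members, the gene lists and the comparison were chosen with earlier results of these data known. Genes named were the 15 largest rises and 15 largest falls among called genes with a symbol, a mean of at least 5 FPKM and no overlap of ages, up to 6 members of each list with the smallest p and its most abundant member, the 10 smallest p of the difference between colours, pigment genes, GAPDH and the 10 most abundant genes, with exceptions stated. Markers without a row are not analysed here. Some genes that the rule takes are not reported here. Scripts were tested on simulated data.

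Libraries of the 2 ages share numbers in part. In white 1W1 and 7W1 share a number, as do 1W3 and 7W3, whereas 1W4 and 7W2 have no partner. White pairs of the same number had correlated deviations from group means (0.26 and 0.27), as had yellow ones (0.27, 0.11 and 0.15). The different-numbered white pair 1W4 and 7W3 stood at 0.16, above 2 of these values. Another such pair, 1W1 and 7W3, stood at -0.34, and every different-numbered yellow pair was negative. Whether the numbers pair the libraries was thus not settled, and the main fit did not use them. The labels do not say that libraries of the same number come from the same bird, and the study's results describe different individuals. A fit with the number as a block was an alternative, beside other pseudocounts, filters, scalings and variance models and leaving out each library. The adjustment for locus length subtracted from each library the loess trend of its log2 deviations on log10 locus length.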

Additional observations from a re-analysis of the deposited data

How the results depend on the processing

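Of 2939 values of named genes under the alternatives, 2810 stayed on their side of the threshold or moved by less than the spread between libraries. The sign changed in 34 of the 2939 values, over 14 genes, and 0 of these genes were called as deposited. With a mean of at least 5 FPKM, which leaves fewer genes tested, 1628 genes were called, 1124 higher, and 903 were shared with yellow. Median-of-ratios scaling gave 1768 higher and 1497 lower. Quantile normalization gave 1382 higher and 1131 lower, with 1260 shared with yellow, and 27 of the 141 named genes lost the call, among them RPS26, RPL26L1, RPLP1, GPX1, UQCR10, COX6A1, ATP5MC2, H2AFV, PSMB6, UBE2C, EIF3G, FZD4, PER2 and BHLHE41. Equal totals left 363 lower genes. The locus-length adjustment, chosen after the data were seen, gave 2166 calls, 1280 higher, with 1218 shared with yellow. The cause of these shifts was not tested. With no fold threshold 8107 genes were called, 5827 higher and 2280 lower, with 5290 shared with yellow. Leaving out each white library in turn gave 3194 to 3628 calls, 2630 to 2945 higher and 553 to 683 lower, with 2154 to 2183 shared with yellow and none for the difference between colours.

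With the library number as a replicate block, 3668 genes were called, 2950 higher and 718 lower, and 3415 with the number as a random effect. In the fixed block the white age change rests only on 1W1 with 7W1 and 1W3 with 7W3, because 1W4 and 7W2 have no partner. The difference between colours gave 0 calls with the block. Among named genes the fixed block changed the calls of HPGDS, MLANA and HBM, given beside those genes, and no other. Read depth was not used here, so counting error was not set against these changes, and 3 libraries at each age allow no exact permutation p below 0.1.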

Other observations

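A few gene groups outside the accounts above also gave calls in white follicles, where 24.8% of all genes were higher and 5.36% lower. The shares of higher calls in these groups were near or below that of all genes. Of 13 cell cycle inhibitors 3 were higher at 11 weeks and 1 was lower, with a median of 0.42 on the log2 scale that was near 0 after median-of-ratios scaling and 0.33 after the locus-length adjustment. Of 37 heat shock and unfolded protein response genes 1 was higher and 2 were lower, with a median of 0.40, or -0.01 after median-of-ratios scaling and -0.13 after the locus-length adjustment. MANF was the lower gene of that list described above. Of 18 endothelial genes 3 were higher and 1 was lower, with a median of 0.68 that was 0.28 after median-of-ratios scaling, -0.15 after quantile normalization and -0.30 after the locus-length adjustment. Of 8 nerve and Schwann cell genes 2 were higher and none lower, with a median of 0.38, or -0.04 after median-of-ratios scaling and -0.19 after the locus-length adjustment.

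The summed FPKM of the Schwann cell markers was 7.86 to 9.31 at 11 weeks and 5.17 to 10.4 at 7 weeks, and that of the skeletal muscle markers in the table was 11.2 to 32.3 at 11 weeks and 9.98 to 21.0 at 7 weeks. Both overlap between the ages. The epidermal and barb epithelium markers summed to 1707 to 1741 FPKM at 11 weeks and 1454 to 1629 FPKM at 7 weeks, with no overlap, 1 of 6 tested markers higher and 1 lower.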
